A study of Mus musculus with 23 samples.

Results

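The 7 genes described here carry calcium and phosphate across the absorbing cells of the small intestine or belong to the vitamin D receptor system that is known to drive that transport. They were taken by name: S100g, Trpv6, Atp2b1, Vdr, Rxra, Cyp24a1 and Slc34a2. All 7 were found among the 55416 genes of the count tables by matching their symbols to Ensembl identifiers. The study asked how replacing part of the dietary glucose of weaned mice by galactose alters the proximal gut. GAL42 mice (n = 12) ate pellets with 16% of energy as galactose and 16% as glucose, and GLU42 mice (n = 11) ate the same pellets with 32% of energy as glucose. All were C57BL/6JRccHsd mice labelled female, put on the diets at 21 days of age and killed at 42 days after 3 weeks, and the upper small intestine was scraped for RNA. A scraping mixes the lining with whatever tissue lies beneath it, so in these bulk samples fewer cells of a type and less RNA per cell cannot be told apart.

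Calcium crosses the enterocyte in 3 steps. It enters from the gut lumen through the channel Trpv6, is ferried through the cytosol by the binding protein calbindin-D9k, the product of S100g, and is pumped out towards the blood by the plasma membrane ATPase PMCA1, the product of Atp2b1. The active hormone of vitamin D binds the receptor Vdr, which pairs with the retinoid X receptor Rxra on DNA, and in the intestine this pair is known to switch on S100g and Trpv6 most strongly in the duodenum. Cyp24a1, the enzyme that breaks the hormone down, is a direct target of the receptor and is often read as a gauge of hormone action. Slc34a2, the sodium-phosphate cotransporter NaPi-IIb, takes up dietary phosphate.

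The Vdr-Rxra pair recognises short half-sites such as AGGTCA, best known in direct repeats with a gap of 3 bases. The start regions of the calcium channel, the calcium buffer and the phosphate carrier are shown because these are the transport genes whose control by the receptor is best known or, for Slc34a2, whose diet difference was the widest of the 5 genes tested. They come from the RefSeq promoter table (build GRCm38.p6; 250 bases before to 50 after the gene start), which held windows for 6 of the 7 genes. Capitals mark AGGTCA on either strand, so that TGACCT is the same motif read on the other one. S100g lies on the minus strand at chrX:162964550-162964849, Trpv6 on the minus strand at chr6:41636356-41636655, and Slc34a2 on the plus strand at chr5:53049103-53049402.
S100g: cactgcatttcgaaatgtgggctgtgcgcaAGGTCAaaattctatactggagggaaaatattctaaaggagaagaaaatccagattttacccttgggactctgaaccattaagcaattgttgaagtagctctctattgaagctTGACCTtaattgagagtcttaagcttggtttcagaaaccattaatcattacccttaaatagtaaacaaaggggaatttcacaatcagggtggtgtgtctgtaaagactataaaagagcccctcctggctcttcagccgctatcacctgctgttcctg
Trpv6: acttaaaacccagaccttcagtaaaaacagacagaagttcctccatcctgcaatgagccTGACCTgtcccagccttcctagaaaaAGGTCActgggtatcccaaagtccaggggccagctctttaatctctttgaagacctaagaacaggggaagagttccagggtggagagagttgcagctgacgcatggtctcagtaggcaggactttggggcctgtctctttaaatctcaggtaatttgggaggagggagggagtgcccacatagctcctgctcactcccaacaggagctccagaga
Slc34a2: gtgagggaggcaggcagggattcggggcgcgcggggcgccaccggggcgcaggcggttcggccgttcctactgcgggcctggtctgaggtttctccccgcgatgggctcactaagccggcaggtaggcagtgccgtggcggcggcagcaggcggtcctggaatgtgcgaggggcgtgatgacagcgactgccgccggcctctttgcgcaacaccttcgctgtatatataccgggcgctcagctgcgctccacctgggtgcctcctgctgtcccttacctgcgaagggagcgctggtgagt
The S100g window held AGGTCA 2 times, with first bases at -220 (plus orientation) and -107 (minus orientation) from the gene start, and the Trpv6 window also held it 2 times, at -191 (minus) and -165 (plus). The Slc34a2 window held none, nor did the windows of Vdr and Atp2b1, while 1 of 2 windows of Rxra held it 2 times, at -87 (minus) and -48 (plus). Of 32851 RefSeq windows of the same length, 16.3% held AGGTCA at least once and 1.81% held it 2 or more times. Besides AGGTCA the search took in its variant AGTTCA, the variant GGGTCA and lastly GGTTCA, each on both strands, and any of the 4 was found in 43.7% of all windows; no 2 of the printed matches overlapped. No window of the 6 genes held 2 of these half-sites in the same orientation 3 bases apart, an arrangement found in 0.0396% of all windows. A match is a description of letters and not a binding site, and these windows leave out distant enhancers.

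Libraries held 15382583 to 17174721 counts in genes. The libraries were rich in absorbing cells: the 9 enterocyte genes summed to between 48736 and 79819 CPM (reads scaled to a common library size) in every library, while the stomach genes Gkn1 and Gkn2 had no count in any. Markers of the proximal small intestine summed to 2578 to 4332 CPM on GAL42 and 2259 to 3680 CPM on GLU42. Duodenal markers summed to 73.7 to 126 CPM on GAL42 and 45.8 to 133 CPM on GLU42, and ileal markers to 79.6 to 140 CPM on GAL42 and 83.8 to 134 CPM on GLU42. Most of each sum came from 1 gene, so the sums say little of the other markers. Medians on GAL42 and GLU42 were 2790 and 2485 CPM for Fabp1 (proximal), 81.9 and 88.9 for Onecut2 (duodenal), and 110 and 97.6 for Slc51b (ileal). The ileal gene Fgf15 had medians of 0.532 and 2.45 CPM, with overlapping ranges. Fabp6, the defining bile acid binding protein of the ileum, had at most 9 counts in a library. Pancreatic acinar genes summed to 656 CPM in GAL42 replicate 2 and to at most 7.89 CPM in the other 22 libraries. That library also had the highest counts of the duodenal factor Pdx1 (330, next highest 179) and of the iron exporter Slc40a1 (1268, next highest 571). GAL42 replicate 12 is labelled female, but its library held 4 counts of Xist and 225 over 4 Y-linked genes, whereas every other library held at least 778 and at most 1. Neither library was removed, and values without them are given where they matter.

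Trpv6 and Cyp24a1 were almost silent in this tissue. Trpv6 had 12, 1, 4 and 1 counts in GAL42 replicates 2, 3, 4 and 6 and 0 in the other 8 GAL42 libraries, against 1, 1, 1 and 2 counts in GLU42 replicates 2, 3, 5 and 7 and 0 in the other 7 GLU42 libraries. Cyp24a1 had 0 counts in all 12 GAL42 libraries, against 1 count each in GLU42 replicates 2 and 4 and 0 in the other 9 GLU42 libraries. A count of 0 allows up to 3 counts, which is 0.167 to 0.201 CPM at these depths. Only 2 Trpv6 values and no Cyp24a1 value lay above that limit, and both Trpv6 values came from GAL42 mice. Of the 23 Trpv6 counts in the study, 12 came from GAL42 replicate 2, the library with the pancreatic genes; Trpv6 is known to be expressed in pancreatic tissue, and the part of that tissue in the 12 counts was not tested. Without that library the GAL42 mice held 6 counts, against 5 in the GLU42 mice. Both genes stayed below the count filter of edgeR, so no fold is given. With the filter lifted, edgeR's quasi-likelihood test gave adjusted p = 0.472 for Trpv6 and adjusted p = 0.468 for Cyp24a1.

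**Figure D1:**
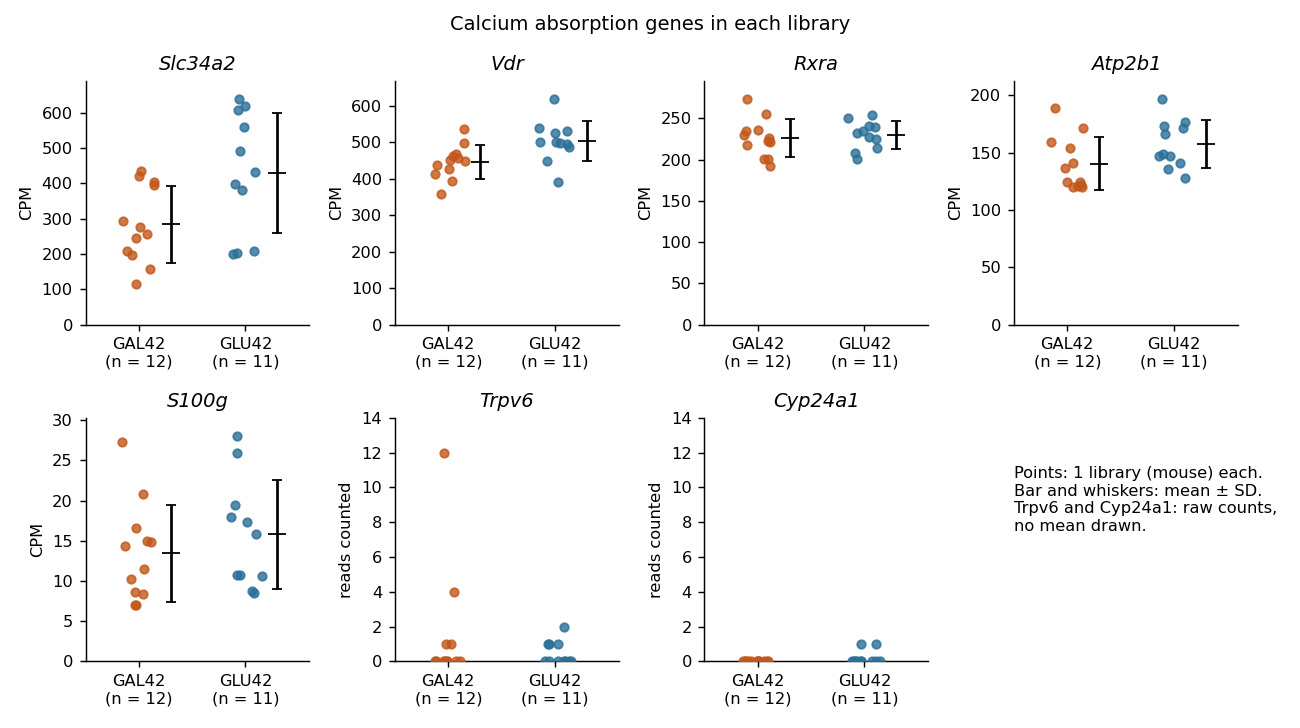
Level of each gene in each library, GAL42 at the left and GLU42 at the right of each panel; each point is 1 mouse, and bars give the mean ± SD in CPM, except that Trpv6 and Cyp24a1 are plotted as raw read counts without a mean. Slc34a2 lay mostly lower on GAL42 (mean 284 against 430 CPM), the diet ranges of all 5 well-measured genes overlapped, and 12 of the 23 Trpv6 reads fell in 1 GAL42 library.

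The other 5 genes were well measured. None of the 5 passed the test between diets, and neither did any other gene: 0 of 13405 genes tested were called (0%) at an adjusted p of 0.05 by edgeR's quasi-likelihood test. The 5 log2 differences, GAL42 minus GLU42, were all negative, with a median of -0.18 against -0.0017 over all genes tested, of which 50.5% were negative. At an unadjusted p of 0.05 there were 2 of 5 (Slc34a2 and Vdr), both lower on GAL42, beside 14.4% of all genes in either direction and 5.72% lower. DESeq2, run on the same 13405 genes, gave an adjusted p to only 7168 and called 132 of those (1.84%). Without GAL42 replicate 7 edgeR called 219 of 13338 genes tested (1.64%). None of the 5 was among either set of calls.

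Slc34a2 had the widest diet difference of the 5 genes tested. It ranged between 114 and 436 CPM (median 266) in GAL42 mice, against 199 to 638 CPM (median 431) in GLU42 mice. The ranges overlapped, but 5 of 11 GLU42 libraries lay above every GAL42 library, 3 of 12 GAL42 libraries lay below every GLU42 library, and 11 of 12 lay below the GLU42 median. Means were 284 ± 108 CPM on GAL42 and 430 ± 170 CPM on GLU42 (SD, n = 12 and 11). The log2 difference was -0.60 ± 0.23 (SE; edgeR adjusted p = 0.230, unadjusted 0.0130), so the phosphate carrier did not pass the test. It ran between -0.68 and -0.52 when each library was left out in turn, and was -0.66 without GAL42 replicate 2 and -0.60 without GAL42 replicate 12.

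Vdr, the receptor itself, lay slightly lower on GAL42. It ranged between 357 and 536 CPM (median 450) in GAL42 mice, against 393 to 619 CPM (median 501) in GLU42 mice. These ranges overlapped over most of their width, with 11 of 12 GAL42 libraries below the GLU42 median and 2 GLU42 libraries above every GAL42 library. The means were 446 ± 46.5 CPM on GAL42 and 504 ± 56.0 CPM on GLU42 (SD), a log2 difference of -0.18 ± 0.07 (edgeR adjusted p = 0.234, unadjusted 0.0137). Rxra, its partner on DNA, ranged between 192 and 273 CPM (median 224) in GAL42 mice, against 200 to 253 CPM (median 233) in GLU42 mice. The GLU42 range lay wholly inside the GAL42 range. The difference for Rxra was -0.02 ± 0.06 (edgeR adjusted p = 0.882).

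Atp2b1, the exit pump, ranged between 120 and 189 CPM (median 131) in GAL42 mice, against 128 to 197 CPM (median 149) in GLU42 mice. The ranges overlapped, although 6 of 12 GAL42 libraries lay below every GLU42 library and 1 GLU42 library lay above every GAL42 one. Its means were 140 ± 23.2 CPM on GAL42 and 157 ± 20.7 CPM on GLU42 (SD), and the log2 difference was -0.17 ± 0.08 (edgeR adjusted p = 0.361). S100g, the cytosolic calcium ferry, ranged between 7.04 and 27.2 CPM (median 12.9) in GAL42 mice, against 8.46 to 28.1 CPM (median 15.8) in GLU42 mice. The diets overlapped over almost the whole range, and the highest GAL42 library was replicate 2. Means were 13.5 ± 6.05 CPM on GAL42 and 15.8 ± 6.75 CPM on GLU42 (SD), and the log2 difference was -0.23 ± 0.23 (edgeR adjusted p = 0.677). Without GAL42 replicate 2 it was -0.37 ± 0.22, and without GLU42 replicate 9 it was -0.11; neither value passed the test.

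Libraries differed in how strongly long transcripts were represented, and the mean of that property was lower on GAL42, a difference that was not tested. For each library log2 CPM, less each gene's mean over all libraries, was regressed on log2 transcript length. The slope was -0.0289 ± 0.0553 on GAL42 and 0.0315 ± 0.0450 on GLU42 (SD). It ranged from -0.123 to 0.0795 on GAL42 and from -0.0600 to 0.0939 on GLU42. Such slopes are relative to the mean library, so the opposite signs of the diet means follow from the centring. With this slope held as a covariate the differences shrank to -0.27 ± 0.27 for Slc34a2, -0.06 ± 0.07 for Vdr and -0.03 ± 0.08 for Atp2b1. The same covariate moved Rxra to 0.05 ± 0.06 and S100g, whose transcript of 480 bases is the shortest of the 7, to -0.52 ± 0.26. All 5 had adjusted p values of 0.750 or more in that edgeR fit. The part of this property in the diet differences was not tested beyond these values.

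**Figure D2:**
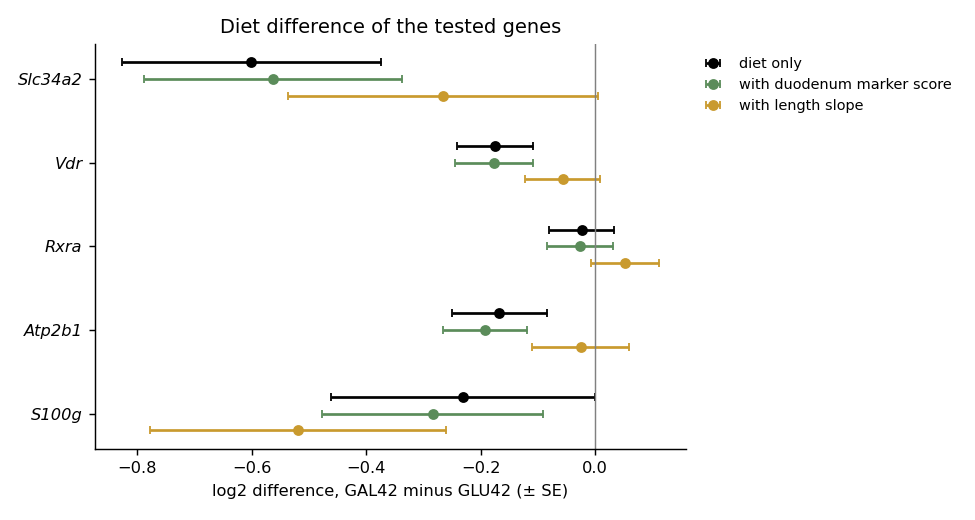
Log2 difference GAL42 minus GLU42 (points) with its SE (bars) for the 5 genes that passed the count filter, in the fit with diet only and in 2 fits with 1 added library score each. Slc34a2 stood at -0.60 with diet only and at -0.27 with the length slope, whereas S100g moved further from 0, to -0.52.

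Per kilobase of the longest transcript, Vdr had the highest level over all 23 libraries, at 108 ± 13.3 CPM per kb (SD). Slc34a2 followed at 84.7 ± 37.6, Rxra at 46.4 ± 4.06, S100g at 30.4 ± 13.3 and Atp2b1 at 20.8 ± 3.27 CPM per kb. Trpv6 and Cyp24a1 came last, at 0.0216 and 0.00155 CPM per kb. Vdr exceeded Slc34a2 in 18 of 23 libraries, Slc34a2 exceeded Rxra in 20, Rxra exceeded S100g in 19 and S100g exceeded Atp2b1 in 16. Each gene's mean ± SD overlapped that of its neighbour in this order, although within single libraries the order held in most, as these counts show. The level of the calcium buffer was moderate: its 14.6 CPM put it at percentile 49.6 of the genes tested, against 97.9 for Vdr, although CPM favours long transcripts.

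S100g and Slc34a2 varied more between libraries than the receptors did. Within diets the SD of log2 CPM was 0.64 for Slc34a2 and 0.61 for S100g, against 0.21 for Atp2b1, 0.16 for Vdr and 0.13 for Rxra. The median over the 13405 genes tested was 0.24, and the values for Slc34a2 and S100g lay at percentiles 94.6 and 93.4. For S100g the highest library was 3.86 times the lowest within GAL42 and 3.32 times within GLU42. Counting error was 4.72 to 9.45% for S100g and at most 2.38% for Slc34a2; the spread also holds differences in scraping and library preparation, which were not measured apart from those between mice.

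Co-variation of S100g, Trpv6 and Cyp24a1 across mice could not be read from these libraries, since 2 of the 3 genes lay at or below the limit of 3 counts in nearly every mouse. With diet means taken off, S100g and Trpv6 had r = 0.317 (rho = 0.136, n = 23; permutation p = 0.156, adjusted p = 0.468 over 3 pairs). Without the 2 mice farthest from the S100g median r was -0.0783, and without GAL42 replicate 2 alone it was -0.0359 (permutation p = 0.878). The value of 0.317 therefore rested on that 1 library, which held the most Trpv6 reads and much S100g. S100g and Cyp24a1 had r = -0.00274 and rho = 0.00325 (permutation p = 1 and p = 0.985; adjusted p = 1), and without the 2 farthest mice r = -0.00316. Trpv6 and Cyp24a1 had r = 0.0186 and rho = -0.181 (permutation p = 0.810 and p = 0.750; adjusted p = 1), and without the 2 farthest mice r = 0.0427. Cyp24a1 had no value above 0 on GAL42, so these last pairs turn on 2 GLU42 reads.

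Among the 10 pairs of the 5 well-measured genes, which were added after the counts had been seen, Vdr and Rxra were the pair that passed. The receptor and its partner moved together across mice with r = 0.824 (rho = 0.796, n = 23; permutation p = 1e-05 for r, the smallest that 100000 resamples can give, adjusted p = 0.0001). The relation held within each diet, with r = 0.869 on GAL42 and 0.794 on GLU42, and r was 0.795 without the 2 mice farthest from the Vdr median. It was 0.760 with the length slope taken off, 0.812 without GAL42 replicate 2 and 0.817 without GAL42 replicate 12. Rxra ranked 15 of 13404 genes by r with Vdr.

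The other 9 pairs did not pass, and the transport genes did not follow the receptor as a block. S100g had r = -0.129 with Vdr, -0.217 with Rxra and -0.205 with Slc34a2 (permutation, adjusted p = 0.567, 0.448 and 0.448). For these 3 pairs rho was -0.178, -0.235 and -0.271, and r without the 2 farthest mice was -0.260, -0.388 and -0.282. S100g and Atp2b1, the ferry and the pump, had r = 0.277 (rho = 0.106; permutation, adjusted p = 0.423). Atp2b1 had r = 0.344 with Vdr, 0.240 with Rxra and 0.297 with Slc34a2 (rho = 0.311, 0.179 and 0.258; permutation, adjusted p = 0.379, 0.448 and 0.423). Vdr and Slc34a2 had r = 0.358 (rho = 0.324; permutation, adjusted p = 0.379), with 0.0146 within GAL42 and 0.680 within GLU42, a contrast that was not tested. Without the 2 farthest mice these 4 values were 0.303, 0.134, 0.243 and 0.167. Rxra and Slc34a2 had r = 0.184 (rho = 0.190, permutation adjusted p = 0.449). For that pair r was -0.0136 within GAL42, 0.460 within GLU42 and 0.418 without the 2 mice farthest from the Rxra median. The pair of S100g and Atp2b1 depended on library properties: r was 0.677 (permutation, adjusted p = 0.00205) with the length slope taken off. It was -0.0286 with the duodenal marker score (mean log2 CPM of Pdx1 and Onecut2) taken off.

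**Figure D3:**
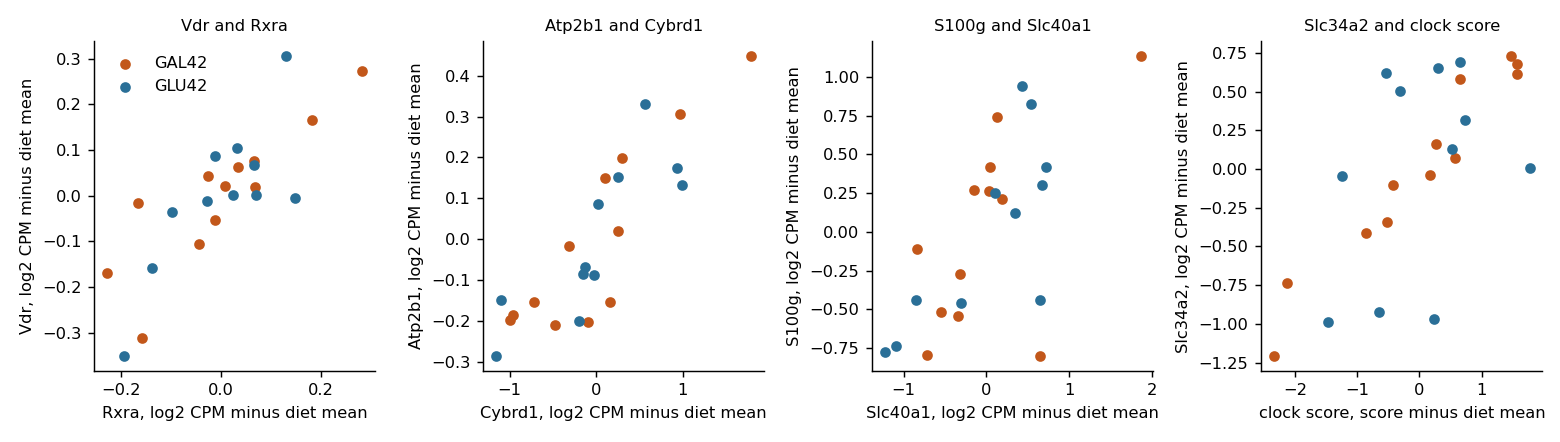
Log2 CPM of 4 genes (vertical axes) against a second gene or a score (horizontal axes), each with the mean of its diet group taken off; each point is 1 of 23 mice, GAL42 or GLU42 by colour. Vdr followed Rxra (r = 0.824) and Atp2b1 followed Cybrd1 (r = 0.860). In the Slc34a2 panel the GAL42 points lay close to a line (r = 0.970) and the GLU42 points did not (r = 0.372). The clock score of that panel was built after the neighbours of Slc34a2 had been seen, and the contrast between diets was not tested.

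S100g and Atp2b1 moved with some of the iron transport genes that mark the upper small intestine. They did not pass with most of the single upper-gut markers tested, but both passed with a duodenal marker score. Each of the 5 genes was set against 9 position markers (6 of the upper gut and 3 of the ileum), which made 45 pairs, of which 4 passed. Fabp1, the proximal marker of highest level, was left out of the 9. S100g passed with 2 of the 6 upper markers and Atp2b1 with 2 of the 6; neither passed with an ileal one. Atp2b1 and Cybrd1, the brush-border iron reductase of the duodenum, had r = 0.860 (rho = 0.837; permutation p = 1e-05 for each, the smallest possible, adjusted p = 0.00045). It was 0.883 within GAL42 and 0.825 within GLU42, 0.816 without the 2 mice farthest from the Atp2b1 median, and 0.812 without GAL42 replicate 2 (adjusted p = 0.0009). Cybrd1 was low, at 0.735 to 5.79 CPM on GAL42 and 0.940 to 4.60 CPM on GLU42, with at most 88 counts in a library. The part of the length slope in this relation was not tested. S100g and Slc40a1, the iron exporter ferroportin, had r = 0.679 (rho = 0.611; permutation p = 0.00046, adjusted p = 0.0103). S100g and Slc11a2, the iron importer DMT1, had r = 0.601 (rho = 0.629; permutation p = 0.00305, adjusted p = 0.0343), and Atp2b1 and Slc40a1 had r = 0.662 (rho = 0.564; permutation p = 0.000870, adjusted p = 0.0130). These 3 relations had r = 0.747, 0.516 and 0.501 without the 2 farthest mice. They did not pass without GAL42 replicate 2, at r = 0.587, 0.481 and 0.533 (adjusted p = 0.147, 0.238 and 0.147 over the 45 pairs). The upper markers that S100g did not pass with were Pdx1 (r = 0.563, permutation, adjusted p = 0.0551), Onecut2 (0.361), Cybrd1 (0.328) and Gata4 (0.312). For Atp2b1 they were Pdx1 (r = 0.520, permutation, adjusted p = 0.0731), Onecut2 (0.397), Slc11a2 (0.308) and Gata4 (0.134). Vdr, Rxra and Slc34a2 passed with none of the 9 markers. The nearest to passing among these was Slc34a2 with the ileal marker Fgf15, at r = 0.549 (rho = 0.528, permutation adjusted p = 0.0691). That r was 0.560 within GAL42 and 0.539 within GLU42. Without the 2 mice farthest from the Slc34a2 median it was 0.467, and without GAL42 replicate 2 it was 0.544 (permutation adjusted p = 0.147). Fgf15 was low, with medians of 0.532 CPM on GAL42 and 2.45 CPM on GLU42. The duodenal marker score was the mean log2 CPM of only 2 genes, Pdx1 and Onecut2, the duodenal markers that passed the count filter. This score was 4.48 ± 0.471 on GAL42 and 4.37 ± 0.682 on GLU42 (SD). Across mice S100g had r = 0.557 with the score and Atp2b1 r = 0.533 (rho = 0.538 and 0.416). Both passed (permutation, adjusted p = 0.0234 for each over 15 pairs of member and score). Without the 2 farthest mice r was 0.544 and 0.354. Vdr (0.0274), Rxra (0.124) and Slc34a2 (-0.248) did not pass with the score. With the score as a covariate S100g stood at -0.28 ± 0.19 and Atp2b1 at -0.19 ± 0.07 (edgeR adjusted p = 0.514 and 0.241). How much of the spread came from where each scraping was taken was not tested.

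The genes nearest to Slc34a2 and most opposite to it included Npas2 and Hlf, which belong to the circadian clock. By r of diet-centred log2 CPM over 23 libraries, the genes most like it among 9273 with a mean of at least 5 CPM were Dab1 (0.85), Gk (0.84), Npas2 (0.83), Cdcp1 (0.83) and 4930539E08Rik (0.82). The gene of most opposite pattern was Hlf (-0.84). A clock score (mean log2 CPM of genes of the Npas2 phase minus that of the opposite phase) was built after these neighbours had been seen, so its relation is given without a test: r = 0.705 over 23 mice, 0.970 within GAL42, 0.372 within GLU42 and 0.579 without the 2 mice farthest from the Slc34a2 median. The difference of that relation between diets was not tested. The score itself was 0.917 ± 1.32 on GAL42 and 1.07 ± 0.953 on GLU42 (SD). With it as a covariate the Slc34a2 difference was -0.63; no error or p is given, since the score was chosen from the neighbours of Slc34a2. The labels give no hour of death.

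The genes most like S100g by the same measure were Etfa (0.82), Adh6a (0.82), Cox11 (0.79), Echs1 (0.76) and Snrpn (0.75), and without GAL42 replicate 2 these values lay between 0.69 and 0.82. No such ranking was made for Trpv6 and Cyp24a1, which lay below the filter. The strand setting of the counting is not given in the sources used here, so reads of an overlapping gene on the other strand cannot be told apart from those of a member. S100g lies within Ctps2, which is on the opposite strand and averaged 6.97 CPM, and shares no exon base with it in the GRCm38 annotation; r between them was 0.191. Gm17182, opposite Slc34a2, had at most 14 counts in a library. Cyp24a1 shares 83 exon bases with Pfdn4 on the opposite strand in that annotation, so its 2 reads may belong to either gene.

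Beyond the 7 members, 72 other genes of vitamin D, calcium and phosphate handling were examined, of which 56 passed the filter. None was called between diets by edgeR; 21 differences were positive and 35 negative, with a median of -0.05. At an unadjusted p of 0.05 there were 1 higher and 9 lower on GAL42, beside 8.63% and 5.72% of all genes tested. Of 5 vitamin D metabolism and uptake genes tested, 1 was at that level, the endocytic receptor Cubn, which takes up vitamin B12 in the intestine and vitamin D binding protein in the kidney. It ranged between 365 and 999 CPM (median 578) in GAL42 mice, against 436 to 1419 CPM (median 914) in GLU42 mice. The ranges overlapped, with 11 of 12 GAL42 libraries below the GLU42 median, and the difference was -0.60 ± 0.17 (edgeR adjusted p = 0.139). Its r with the length slope across mice was 0.577. Cyp27b1, which makes the active hormone, had at most 6 counts in a library. Sult2b1 and Pdia3 each stood at 0.09 (SE 0.07 and 0.05).

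Of 10 receptor partners and coregulators tested, 2 were at an unadjusted p of 0.05, both lower on GAL42: the corepressor Ncor1 at -0.25 ± 0.09 and the coactivator Ncoa2 at -0.20 ± 0.09 (edgeR adjusted p = 0.205 and 0.328). Smarca4, a chromatin remodelling ATPase, stood at -0.02 ± 0.05. Both genes followed the length slope across mice, Ncor1 with r = 0.716 and Ncoa2 with r = 0.866. Of 7 other genes reported as vitamin D targets in mouse intestine, none was at that level. Cyp3a11, a steroid and drug hydroxylase, stood at -0.11 ± 0.19, the efflux pump Abcb1a at -0.15 ± 0.13 and the cell cycle inhibitor Cdkn1a at -0.08 ± 0.08.

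**Figure D4:**
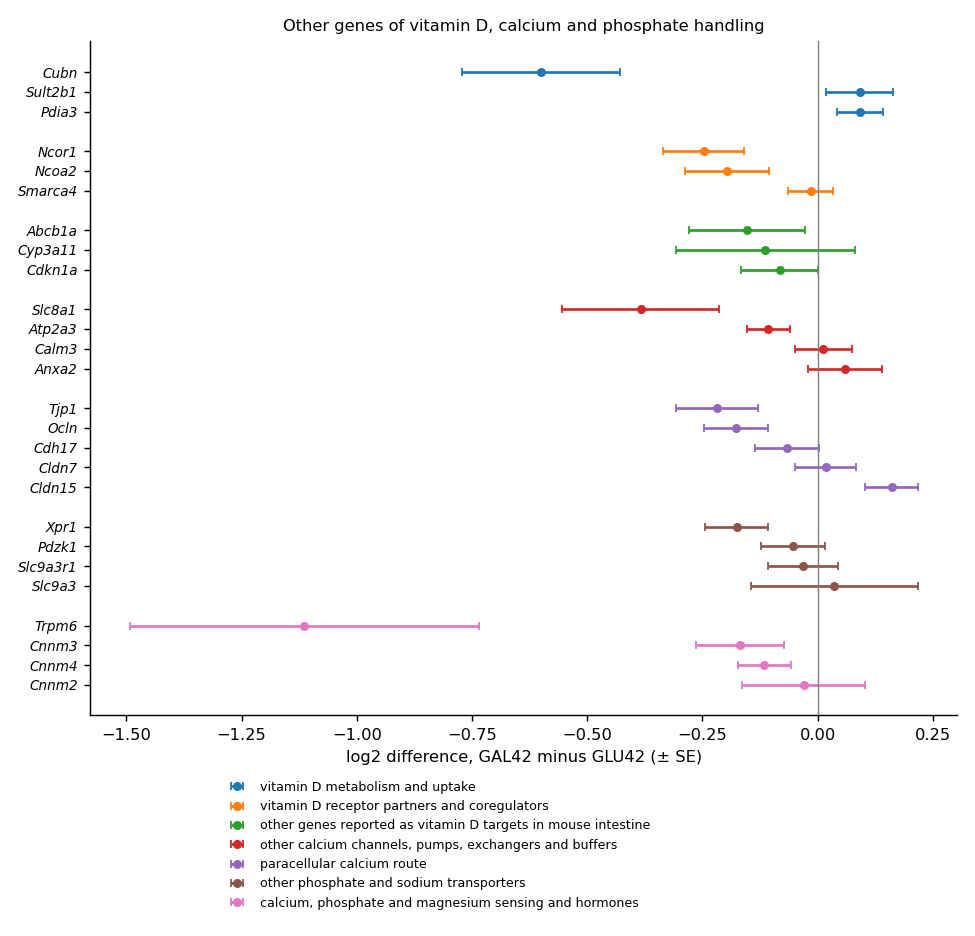
Log2 difference GAL42 minus GLU42 (points) with its SE (bars) for the named genes of 7 lists of vitamin D, calcium and phosphate handling, coloured by list. Cubn (-0.60) and Trpm6 (-1.11) lay farthest below 0 and Cldn15 (0.16) farthest above it; no gene had an adjusted p below 0.05.

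Of 14 other calcium channels, pumps, exchangers and buffers tested, 2 were at an unadjusted p of 0.05: the sodium-calcium exchanger Slc8a1 at -0.38 ± 0.17, with a mean of only 1.81 CPM on GAL42 and 2.36 CPM on GLU42, and the endoplasmic pump Atp2a3 at -0.11 ± 0.05 (edgeR adjusted p = 0.308 and 0.3002). Their r with the length slope was 0.588 for Slc8a1 and 0.0664 for Atp2a3. The abundant Calm3, which encodes calmodulin, and Anxa2, an annexin, stood at 0.01 ± 0.06 and 0.06 ± 0.08. Trpv5, the renal relative of Trpv6, and Atp2b3 had no count in any library, and the renal buffer Calb1 had 1 count in all. In the paracellular route, where calcium passes between cells, 3 of 8 genes were at that level. Cldn15, a claudin that forms cation pores, was at 0.16 ± 0.06 (981 ± 100.03 CPM on GAL42, against 878 ± 54.4 CPM on GLU42; edgeR adjusted p = 0.210). The junction genes Ocln and Tjp1 were at -0.18 ± 0.07 and -0.22 ± 0.09 (edgeR adjusted p = 0.240 and 0.260). With the length slope r was -0.510 for Cldn15, 0.415 for Ocln and 0.795 for Tjp1.

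Of 7 other phosphate and sodium transport genes tested, 1 was at an unadjusted p of 0.05, the phosphate exporter Xpr1 at -0.18 ± 0.07 (edgeR adjusted p = 0.241), which followed the length slope with r = 0.676. The sodium-proton exchanger Slc9a3 stood at 0.04 ± 0.18 and the scaffolds Slc9a3r1 and Pdzk1 at -0.03 ± 0.08 and -0.05 ± 0.07. In the list of mineral sensing and hormone genes all 7 tested had negative differences (median -0.17), and 1 was at that level: the magnesium channel Trpm6 at -1.11 ± 0.38 (edgeR adjusted p = 0.202). Its level was low, between 0.263 and 1.85 CPM (median 0.684) on GAL42, against 0.356 to 3.73 CPM (median 1.06) on GLU42. The 2 ranges overlapped, and 9 of 12 GAL42 libraries lay below the GLU42 median. Cnnm4, linked to magnesium exit, stood at -0.12 ± 0.06.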

How the data were processed

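RNA of proximal small intestine scrapings was sequenced in 23 libraries, 1 per mouse. Per the submitters' processing notes, STAR, HTSeq and build GRCm39 were used. For tool versions, annotation release and strand setting the sources used here give nothing. The authors deposited raw read counts per gene; 5 rows that name no gene held 13.5% of reads and were left out. Symbols were found for 94.0% of gene rows. In 121 pairs of libraries within a diet the counts differed by more than sampling noise (chi-square per degree of freedom 12.9 to 51.3). Replicate numbers follow deposit order and pair no mice.

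Counts were tested with edgeR 4.0.16 (R 4.3.3): filterByExpr (13405 genes left), TMM scaling, quasi-likelihood F test with diet as the only term over all libraries, Benjamini-Hochberg adjustment, threshold 0.05. The script was first tested on simulated data. DESeq2 1.42.0, limma-voom (limma 3.58.1), RLE size factors, 2 other filters, 3 covariates and leaving out each library were alternatives; the length slope and clock score were added after seeing the data. Correlations used log2 CPM (prior count 2) with diet means taken off and two-sided tests with 100000 permutations within diets. Counts were the unit throughout; levels per kb used the longest GENCODE transcript (GRCm38) by identifier.

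Members and lists were chosen with earlier results of these data known. Named genes were the members and, per list, the 3 tested genes of highest mean CPM and any with an unadjusted p under 0.05, except items not reported here; neighbours were the 5 highest by r. Neighbours of genes other than S100g, and the pairs among the 5 tested members, were added after values were seen.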

Additional observations from a re-analysis of the deposited data

How the results depend on the processing

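In every count, scaling, filter, tool and covariate alternative and every library left out, none of the 5 tested members was called. edgeR called 0 genes in all of these except without GAL42 replicate 7, which gave 219 (range 0 to 219), and DESeq2 called 132; the cause was not tested. Rxra turned to 0.0513 with the length slope. Trpv6 and Cyp24a1 lay below the filter and have values only in the unfiltered fit. Of the planned pairs, S100g with Trpv6 ran between -0.0359 and 0.471 with libraries left out. S100g with Cyp24a1 turned to 0.0614 with diet means kept and 0.133 with the length slope, and ran between -0.153 and 0.143. Trpv6 with Cyp24a1 turned to -0.0334 with diet means kept, -0.121 with the duodenal score and -0.0553 with the length slope, and ran between -0.0728 and 0.104. Near 0, such signs carry no information. Of the added pairs, S100g with Atp2b1 turned to -0.0286 with the duodenal score, S100g with Vdr to 0.193 and Atp2b1 with Vdr to -0.0190 with the length slope. Atp2b1 with Rxra turned to -0.0360 with library totals and -0.0504 with the length slope, and Atp2b1 with Slc34a2 to -0.0163 with the clock score. With the clock score taken off, Vdr with Slc34a2 rose to 0.569 and Rxra with Slc34a2 to 0.440, both past the threshold. That score was chosen from the neighbours of Slc34a2, so no p is given for these values. Vdr with Rxra stayed past the threshold, between 0.742 and 0.827 over 6 settings and 0.788 and 0.856 with libraries left out. Depth limits Trpv6 and Cyp24a1 to bounds. No paired analysis was possible because replicate numbers follow deposit order and pair no mice.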

Other observations

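The other members' nearest genes by r of diet-centred log2 CPM (n = 23 libraries that share depth and transcript-length trends; no test) were chosen after values were seen. For Vdr they were Chdh (0.95), Nos1ap (0.90) and Zmiz1 (0.86), and for Rxra they were Patj (0.87), Itpkc (0.86) and Tom1l2 (0.83), followed by Vdr (0.82). For Atp2b1 they were Dock8 (0.84), Mia2 (0.83) and Itgav (0.81). The ribosomal protein genes Rpl31 (-0.80), Rpl29 (-0.80) and Rpl14 (-0.79) were 3 of the 5 genes most opposite to Atp2b1. Their longest transcripts have 845 to 1271 bases, against 7130 for Atp2b1, and Atp2b1 itself had r = 0.560 with the length slope (rho = 0.579; permutation p = 0.00780, adjusted p = 0.0234 over 15 pairs of member and score; r = 0.624 without the 2 farthest mice). Vdr had r = 0.635 with it (rho = 0.506; permutation p = 0.00153, adjusted p = 0.0115; r = 0.509 without the 2 farthest mice).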
